A study of Mus musculus with 12 samples.

Results

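Oocytes of mice carrying the D166G missense mutation of Dpagt1 (MUT) were compared with oocytes of mice in which Dpagt1 was deleted in granulosa cells (AmcKO). The comparison covered the 10389 genes, of 24255 in the table (42.8%), whose FPKM (fragments per kilobase of transcript, scaled to the mapped fragments of a library) was at least 1 in at least 1 of the 3 MUT and 3 AmcKO libraries. It sets oocytes in which every cell, the oocyte included, carries the altered enzyme against oocytes that were meant to keep an intact Dpagt1 while the surrounding granulosa cells lost it. DPAGT1 is the enzyme that starts N-linked glycosylation: in the membrane of the endoplasmic reticulum (ER) it transfers the sugar phosphate on which the glycan is then built onto the lipid dolichol. Finished glycans are moved onto nascent secretory and membrane proteins, among them the zona pellucida proteins of the oocyte, and they are read by the chaperones that fold these proteins. When folding or amino acid supply fails, the kinases of the integrated stress response raise the transcription factor ATF4, which induces genes of amino acid uptake and synthesis.

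All mice were C57BL/6 (C57BL/6J in the study's methods), 3 weeks old and primed with PMSG at 5 IU per mouse, and each library was made by Smart-seq2 from 20 oocytes at the germinal vesicle stage, collected 46 h later. MUT mice carried the ENU-induced mutation in all cells (genotype D166G, homozygous). AmcKO mice were Dpagt1F/F Amhr2CRE/+, so their oocytes carried the floxed allele and were in a mouse with Cre in the Amhr2 locus, a driver of granulosa cells. Beside these, GcKO mice (Dpagt1F/F Gdf9CRE/+, deletion driven in oocytes) and WT mice, with 3 libraries each, entered the same fit. MUT and GcKO libraries are numbered 1 to 3 and AmcKO and WT libraries 4 to 6, so that any batch that followed these numbers and the genotype cannot be told apart. Nothing in the labels ties a library to single mice, so p-values measure the spread between libraries.

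The mutated base lies in exon 3 of 9 of Dpagt1, on the plus strand of chromosome 9 (GRCm38). The base change is A497G in coding positions, at 44328161, and turns codon 166 from GAC into GGC (D166G, aspartic acid into glycine). The 61 bases of spliced coding sequence around it, which cross into exon 4 and span chr9:44328131-44329015 with the intron left out, show codon 166 in capitals.
Dpagt1-201, coding positions 467 to 527: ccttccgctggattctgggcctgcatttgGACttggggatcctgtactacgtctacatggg

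Dpagt1 itself was hardly detected and did not reach the filter. It was listed at 0.878, 0.408 and 0.985 FPKM in MUT replicates 1 to 3 and at 0 in the 3 AmcKO libraries. GcKO replicate 2 gave 0.366 FPKM, and the other GcKO libraries and all WT libraries were at 0. The MUT values lay above all AmcKO values, with the smallest p that 3 against 3 values can give (exact two-sided permutation test, p = 0.1). Because WT was at 0 too, the values check neither label. An exact 0 in this table can be a failed estimate, since 8 of 81 cytosolic ribosomal protein genes were at 0 in all 12 libraries.

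The FPKM scale differed between the groups. FPKM values summed to 589617 to 611597 per MUT library and to 883256 to 1107925 per AmcKO library, 604123 ± 12564 against 986061 ± 113541 (SD, n = 3; exact two-sided permutation test, p = 0.1, the smallest possible), and GcKO libraries (482314 to 684212) and WT libraries (1167362 to 1226005) stood apart in the same way. Between 11208 and 11467 genes were above 0 per MUT library and between 10399 and 10921 per AmcKO library. Reads per library were not given with these values, and 1 fragment was worth 1.00 to 1.21 times the MUT replicate 2 value in MUT and 1.21 to 1.5 times in AmcKO, as estimated from steps in low values. Pearson's r of log2(FPKM + 1) across genes was 0.96 to 0.965 between MUT libraries, 0.954 to 0.96 between AmcKO libraries and 0.934 to 0.953 between the groups. The 10 oocyte markers were above 0 in every library. Of 15 granulosa cell markers, 9, 9 and 10 were above 0 in MUT replicates 1 to 3 and 4, 5 and 6 in AmcKO replicates 4 to 6. Only Amh, Amhr2, Foxl2 and Wt1 were at 0 in all 12 libraries, where a 0 can be a failed estimate.

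At a limma Benjamini-Hochberg adjusted p under 0.05, 777 of the 10389 transcripts (7.48%) differed between MUT and AmcKO oocytes, of which 175 (1.68%) were higher and 602 (5.79%) lower in MUT. More than 2-fold changes were found for 120 of those higher and 285 of those lower. At an unadjusted p under 0.05, 2302 transcripts (22.2%) differed, and for 3139 (30.2%) the 3 MUT values did not overlap the 3 AmcKO values. These hold all 602 transcripts called lower and 173 of the 175 called higher, so a lack of overlap adds little to a call. Fold changes are given as differences of log2(FPKM + 1), a scale on which changes of low transcripts come out too small.

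The transcripts that fell were abundant and those that rose were not. The median level over the 6 libraries was 4.09 FPKM for all transcripts tested, 9.33 FPKM for those higher and 130.8 FPKM for those lower in MUT. Of the 134 transcripts at 1000 FPKM or more, 95 (70.9%) were lower and 1 was higher in MUT. Of the 4955 transcripts between 1 and 10 FPKM, 54 (1.09%) were lower and 83 (1.68%) higher. The median log2 fold change went from 0.18 in this lower class to -0.46 between 100 and 1000 FPKM and -0.79 above that. These falls and the lower FPKM sums of MUT libraries are measures of the same values. In bulk oocytes, less RNA of a transcript per oocyte and fewer oocytes that hold it cannot be told apart.

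The split of calls depended on the scale. With each library brought to the same FPKM sum, the median over all transcripts moved from 0.07 to 0.57 on the log2 scale, and 2500 transcripts (24.1%) were higher and 172 (1.66%) lower. With quantile normalization 229 (2.2%) were higher and 338 (3.25%) lower, and with cyclic loess, which removes a trend of the fold change with abundance, 213 (2.05%) and 333 (3.21%). Median-of-ratios scaling left the split at 179 (1.72%) and 590 (5.68%), with factors between 1.01 and 1.03 for all 12 libraries. In the same direction under all of these scalings, 247 of the 777 transcripts were called, 112 of the 175 higher (64%) and 135 of the 602 lower (22.4%). A transcript said to hold under all scalings was called in the same direction under these 4, while the sizes printed are those on the deposited scale unless another is named.

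**Figure D1:**
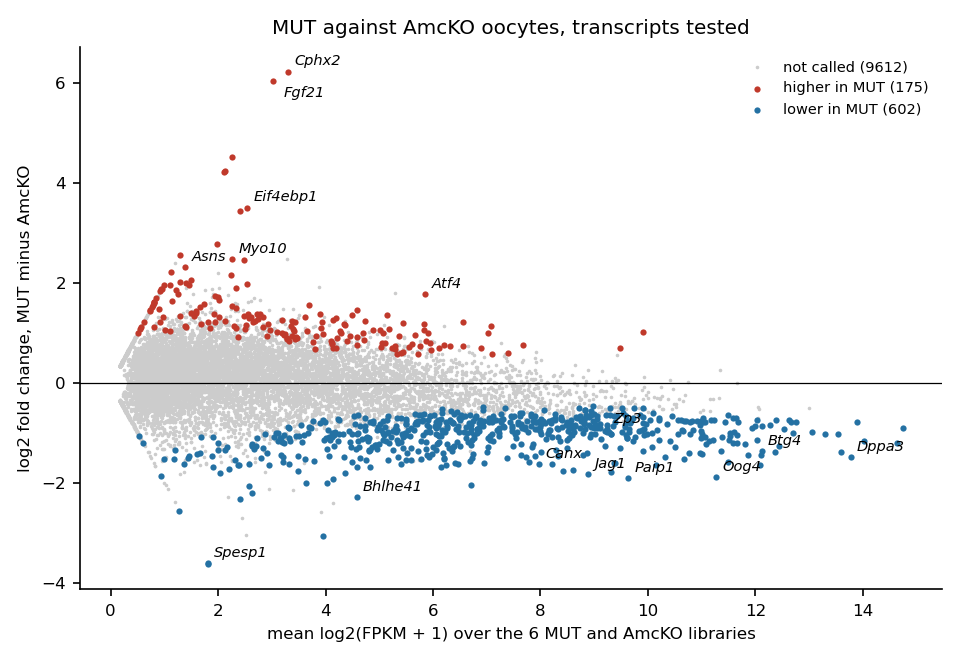
Difference of log2(FPKM + 1) between MUT and AmcKO oocytes (y axis) against the mean log2(FPKM + 1) over the 6 libraries (x axis), 1 point for each of the 10389 transcripts tested. The 175 transcripts called higher in MUT (red) lie mostly at low and middle levels, and the 602 called lower (blue) take up most of the right end; Fgf21 and Jag1 are labelled among others.

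Of the 38 genes listed for ATF4 and the integrated stress response, 27 were tested, 9 of them (33.3%) rose in MUT against 1.68% of all transcripts, and none fell. Without 1 library 4 (MUT replicate 3) to 8 rose, with 5 without MUT replicate 2, 6 without AmcKO replicate 5 and 7 without AmcKO replicate 6. The filter favoured this direction for 9 of the 27, Fgf21, Nupr1, Asns and Chac1 among them, which among the 6 libraries reached 1 FPKM in those of MUT only, against 940 of the 10389 transcripts, so that their sign and lack of overlap say little. None passed through AmcKO only. Of the 18 that reached 1 FPKM in both groups, 5 rose (27.8%, against 1.6% of 8694 such transcripts), namely Atf4, Eif4ebp1, Slc3a2, Mthfd2 and Cebpg, with a median over the 18 of 0.63 on the log2 scale against 0.06. With the same sum, 18 of all 27 tested were higher, with quantile normalization 9 and with cyclic loess 9, and none was lower under any of these.

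Fgf21 (chr7:45613886-45615490, gene coordinates of GRCm38 here and in what follows), a secreted hormone of the starvation response, was at 73.6, 49.3 and 77.2 FPKM in MUT and at 0 in all AmcKO libraries. It was also at 0 in all WT libraries and in GcKO, apart from 1.89 FPKM in GcKO replicate 1. The MUT libraries were thus the only ones of the 12 above 2 FPKM, and Fgf21 had the smallest adjusted p of the comparison (limma, 4.5e-06), called without each library in turn.

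Eif4ebp1 (chr8:27260329-27276674), an inhibitor of cap-dependent translation, was at 16.3, 16.3 and 24.1 FPKM in MUT and at 0, 1.35 and 1.16 FPKM in AmcKO. The groups stood far apart, and the log2 fold change was 3.51 ± 0.51 (SE; limma adjusted p = 0.00141). Asns (chr6:7675169-7693254), the asparagine synthetase, was at 3.89, 6.02 and 4.85 FPKM in MUT and at 0.601, 0 and 0 in AmcKO. It rose by 2.32 ± 0.32 on the log2 scale (limma adjusted p = 0.00124). Nupr1 (chr7:126623249-126630861), a small stress-induced nuclear protein, was at 2.04, 1.97 and 4.67 FPKM in MUT and at 0 in the other 9 libraries (limma adjusted p = 0.0019). Eif4ebp1, Asns and Nupr1 held under all scalings and without each library in turn.

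The other 5 genes that rose are named after their values were seen. Atf4 (chr15:80255184-80257541), the transcription factor itself, was at 96.2, 101.7 and 121.9 FPKM in MUT and at 29.8, 23.4 and 39.5 FPKM in AmcKO. The lowest MUT value was above every AmcKO value, at a log2 fold change of 1.78 ± 0.32 (limma adjusted p = 0.00514). Without MUT replicate 3 the adjusted p was 0.0509. Slc3a2, the heavy chain of amino acid transporters, was at 45.9, 63 and 58.3 FPKM against 21.2, 18 and 24.2 FPKM, again without overlap, and rose by 1.36 ± 0.26 (limma adjusted p = 0.00765). The call of Slc3a2 was lost without MUT replicate 2 (0.0548) or MUT replicate 3 (0.0528).

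Chac1, which degrades glutathione, was at 2.22, 4.13 and 6.23 FPKM in MUT and at 0.771, 0 and 0 in AmcKO. Mthfd2, a mitochondrial folate enzyme, was at 74.3, 90 and 71.6 FPKM against 55.4, 47.7 and 43.5 FPKM. Cebpg, a partner of ATF4 on DNA, was at 9.26, 8.39 and 9.07 FPKM against 2.92, 2.12 and 4.91 FPKM. None of these overlapped, and the log2 fold changes were 2.02, 0.67 and 1.25, but leaving out 1 library ended 4 of 6 times the call of Chac1 and 5 of 6 times that of Mthfd2 and of Cebpg, with adjusted p up to 0.076, 0.113 and 0.164. Cebpg was not called under quantile normalization (adjusted p = 0.0654) or cyclic loess (0.0718).

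Other genes of the list did not pass the test. Ddit3, which encodes the factor CHOP, was at 381.9, 387.3 and 319 FPKM in MUT and at 298.8, 418.3 and 249.1 FPKM in AmcKO. These ranges overlapped, with an adjusted p of 0.663, although Ddit3 was called higher under the same sum (0.00365), quantile normalization (0.0128) and cyclic loess (0.0324). Trib3 was at 0 in all 6 libraries. Further members that did not pass include the enzymes of serine synthesis Phgdh (3.58, 2.91 and 5.02 against 2.49, 0 and 1.51 FPKM) and Psat1 (0.378, 0.7 and 2.54 FPKM against 0 in each).

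Oocytes with the deletion of their own Dpagt1 had less of some of these transcripts. In GcKO replicates 1 to 3, Atf4 was at 72.5, 45.5 and 28.1 FPKM, against 15.9, 33 and 20.5 FPKM in WT, a log2 fold change of 1 (limma adjusted p = 0.0393). Asns was at 0.771, 0.722 and 0 FPKM, and Nupr1 at 0, in GcKO. In the direct contrast of GcKO with MUT, which shares the MUT libraries, Fgf21 (limma adjusted p = 1.4e-05), Asns (0.02) and Nupr1 (0.0179) were lower in GcKO, while Atf4 (0.223), Eif4ebp1 (0.164), Slc3a2 (0.156), Chac1 (0.156), Mthfd2 (0.131) and Cebpg (0.953) did not pass.

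Some transcripts of granulosa cells were higher in the same MUT libraries. Of the 15 granulosa cell markers 6 were tested and 3 rose: Gja1, the gap junction protein of these cells, Inha, an inhibin subunit, and Hsd17b1, a steroid enzyme. Of the 6 libraries, all 3 reached 1 FPKM in those of MUT only, so that the filter favoured this direction, and neither of the 2 markers that reached it in both groups passed the test. Gja1 was at 3.3, 2.35 and 4.26 FPKM in MUT and at 0, 0 and 0.285 in AmcKO, Inha at 5.44, 1.13 and 5.44 against 0, 0.797 and 0, and Hsd17b1 at 2.06, 0.642 and 3.09 against 0 in each. The calls of Inha and Hsd17b1 were lost when any of at least 4 of the 6 libraries was left out, and Hsd17b1 was not called under quantile normalization (0.064) or cyclic loess (0.0584). None of the 3 overlapped between the groups. MUT replicate 2 was the lowest MUT library for each of these markers. In the ATF4 list it was the highest for Asns, Slc3a2 and Mthfd2 and the lowest for Fgf21, Nupr1 and Cebpg. It was level with MUT replicate 1 for Eif4ebp1 and lay between the other MUT libraries for Atf4 and Chac1. Cyp19a1, the aromatase, went the other way at 8.88, 9.49 and 13.4 against 10.9, 19.2 and 9.97 FPKM (adjusted p = 0.68). The 15 markers summed to 17.8 to 31.6 FPKM in MUT, 12.1 to 22.7 in AmcKO, 14.7 to 29.3 in GcKO and 17.6 to 23.1 in WT, and Amh, Amhr2, Foxl2 and Wt1 were at 0. The part of granulosa cell RNA in the ATF4 list was not tested.

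**Figure D2:**
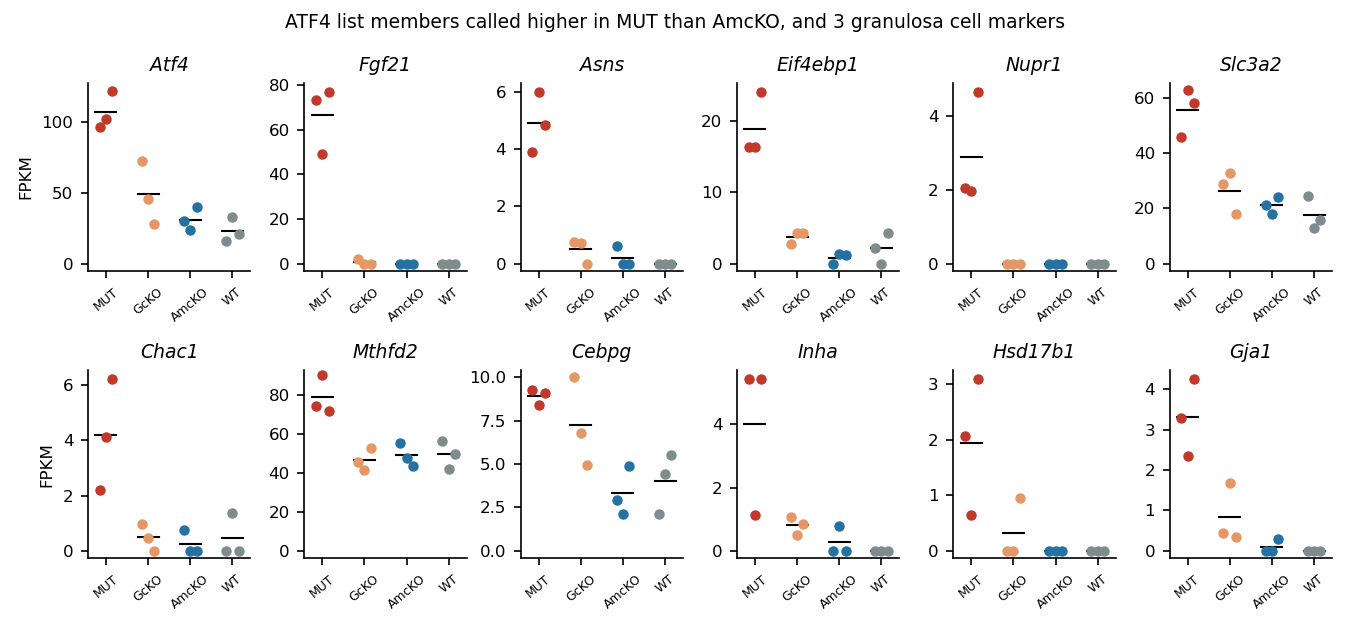
FPKM of the 9 genes of the ATF4 list called higher in MUT than AmcKO and of 3 granulosa cell markers, with 1 point per library and a bar at the mean of the 3 libraries; the y axis differs between panels and starts near 0. Fgf21, Asns and Nupr1 are below 2 FPKM outside MUT and Eif4ebp1 below 5 FPKM, whereas Mthfd2 differs less, from 43.5 to 55.4 FPKM in AmcKO to 71.6 to 90 FPKM in MUT.

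ATF4 binds with C/EBP partners to an element with the letters TGATGNAA, which was looked for on both strands of the 250 bases before the start of each gene (RefSeq promoters, GRCm38.p6). This search was chosen after the values were seen. Of the 9 genes that rose, 8 had a promoter and 4 of these (50%) held the letters, against 5 of 25 (20%) of the other genes listed, 2.92% of all transcripts tested and 1056 of 27025 genes (3.91%). Those 4 are shown for the element, in capitals, with bases of the gene's strand on both sides, and 3 hold it as TTGCATCA, that is on the opposite strand. Herpud1 held TTGCATCA as well, and Atf4, Slc3a2, Mthfd2 and Cebpg held no match in this window. Between MUT and AmcKO, all 4 genes that held the letters reached 1 FPKM in MUT libraries only, so that the filter favoured their rise. Atf4, Slc3a2, Mthfd2 and Cebpg reached it in both groups, as did Eif4ebp1, which had no promoter entry. The share of 50% thus rests on genes that the filter favoured.
Fgf21, chr7:45615576-45615675, minus strand, element at -139 to -132: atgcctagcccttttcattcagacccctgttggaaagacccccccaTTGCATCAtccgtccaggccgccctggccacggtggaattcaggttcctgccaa
Nupr1, chr7:126625527-126625626, minus strand, element at -110 to -103: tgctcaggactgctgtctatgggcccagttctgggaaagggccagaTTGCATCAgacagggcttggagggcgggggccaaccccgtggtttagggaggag
Chac1, chr2:119351003-119351102, plus strand, element at -193 to -186: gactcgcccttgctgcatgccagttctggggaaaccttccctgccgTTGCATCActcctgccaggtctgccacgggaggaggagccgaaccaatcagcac
Asns, chr6:7693210-7693278, minus strand, element at -23 to -16: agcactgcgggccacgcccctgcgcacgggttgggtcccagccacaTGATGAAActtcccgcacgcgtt

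The unfolded protein response of the ER, which raises chaperones and degradation factors, was looked at beside this list. Of 19 genes tested 1 rose (5.26%, against 1.68% of all transcripts) and none fell, and the median was 0.35 on the log2 scale. The gene that rose was Herpud1, a part of ER-associated degradation that passed the filter through MUT only, at 1.35, 0.833 and 2.01 FPKM in MUT and at 0 in the other 9 libraries (limma adjusted p = 0.0122). Hspa5, the ER chaperone BiP, was at 31.7, 46.1 and 34.8 FPKM against 38.3, 39.5 and 34.5 FPKM, with the AmcKO values inside the MUT range (adjusted p = 0.981; under the same sum 0.67 on the log2 scale and called). Under the same sum 11 of the 19 were called higher, and 3 each under quantile normalization and cyclic loess.

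Among the enzymes that build the dolichol-linked glycan, 19 of 23 were tested, and the median log2 fold change was -0.01. Of these 1 rose (5.26%, against 1.68% of all transcripts) and 2 fell (10.5%, against 5.79%). Alg9, a mannosyltransferase, was at 3.82, 8.16 and 6.91 FPKM in MUT and at 1.22, 0.77 and 1.32 FPKM in AmcKO, a rise of 1.75 ± 0.36 (limma adjusted p = 0.00956) that was not called without MUT replicate 2, MUT replicate 3 or AmcKO replicate 5 (0.0537 to 0.0607). Alg9 lies on chromosome 9, 6.45 Mb from Dpagt1, and was at 4.2, 1.72 and 2.45 FPKM in GcKO and 4.47, 5.06 and 9.3 FPKM in WT. Alg13, whose product acts in the step after DPAGT1, was at 81.7, 70.1 and 77.7 against 121.2, 134.1 and 108.8 FPKM, and Dpm2, a subunit of dolichol-phosphate mannose synthase, at 89.1, 92.5 and 102.4 against 138.5, 184.3 and 160.8 FPKM. Both were lower in MUT in every library, by 0.66 and 0.75 on the log2 scale (limma adjusted p = 0.0273 and 0.0192), but neither was called under the same sum, where Alg13 was at 0.04, nor under quantile normalization or cyclic loess. Each call was also lost when any of at least 4 of the 6 libraries was left out.

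Of the 12 subunits of the oligosaccharyltransferase, which moves the glycan onto proteins, 1 fell (8.33%, against 5.79% of all transcripts) and none rose. This was Dad1, at 693.9, 650.6 and 605.5 FPKM in MUT against 1179.5, 1650.9 and 1066.3 FPKM in AmcKO, a log2 fold change of -0.97 ± 0.19 (limma adjusted p = 0.00812, without MUT replicate 3 0.0589; 0.0836 to 0.161 under the same sum, quantile normalization and cyclic loess). Of the 17 genes of glycoprotein folding and quality control, Canx (chr11:50293961-50325673), the lectin chaperone calnexin, alone was called (5.88%, against 5.79% of all transcripts called lower). It was at 157.5, 141.3 and 128.9 FPKM in MUT and at 467.5, 450.1 and 401.7 FPKM in AmcKO, without any overlap. Canx fell by 1.62 on the log2 scale (SE 0.16; limma adjusted p = 8.7e-05), and it was called without each library and under all scalings, with -0.92 under the same sum.

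Of 9 transcripts tested of the zona pellucida and egg surface, 4 fell on the deposited scale (44.4%, against 5.79% of all transcripts), 5 did not pass and none rose, and the median was -0.65 on the log2 scale. Zp3, a zona glycoprotein, was at 375.1, 497.1 and 459.8 FPKM against 951.7, 639.1 and 952.1 FPKM, and fell by 0.92 on the log2 scale (SE 0.17; limma adjusted p = 0.00671). Zp2 was at 88.5, 91 and 67.2 against 149.5, 140.8 and 125.3 FPKM (adjusted p = 0.0389), and Zp1 at 17.3, 24.9 and 22.3 against 37.9, 31.8 and 52.1 FPKM did not pass (0.078). Oosp2, an oocyte-secreted protein, and Cd9, the tetraspanin of sperm fusion, fell by 0.78 and 0.65. By their means over the 6 libraries, Zp2, Zp3 and Cd9 lay between 100 and 1000 FPKM and Oosp2 above 1000 FPKM. Over all transcripts, 32.9% in the former class and 70.9% in the latter were called lower, far more than 5.79%. Under the same sum, quantile normalization and cyclic loess none of the 9 was lower and 2, 1 and 1 were higher. Oosp2 changed sign under quantile normalization and cyclic loess, and Cd9 under the same sum, and the calls of Zp2, Oosp2 and Cd9 were lost when any of at least 4 of the 6 libraries was left out.

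Of 13 genes of the signals between the oocyte and its granulosa cells 1 rose (7.69%, against 1.68% of all transcripts). Another 2 fell (15.4%, against 5.79%), namely Jag1 and Tgfb2. Jag1 (chr2:137081456-137116644), a membrane ligand of Notch, was at 262.3, 262.3 and 230.3 FPKM in MUT and at 916.3, 1093.1 and 713.4 FPKM in AmcKO. The highest MUT value was far below the lowest AmcKO value, and Jag1 fell by 1.83 on the log2 scale (SE 0.15; limma adjusted p = 3.2e-05). GcKO had 288.7, 320.7 and 324.8 FPKM and WT 1024.2, 999.6 and 983.9 FPKM, so that Jag1 was low in both groups whose oocytes were meant to lack normal DPAGT1. It was called without each library and under all scalings, with -1.13 under the same sum.

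Myo10 (chr15:25622525-25813673), a motor protein of filopodia, was at 10.5, 10.9 and 9.6 FPKM in MUT and at 0.253, 1.55 and 1.63 FPKM in AmcKO. It rose by 2.48 ± 0.33 (limma adjusted p = 8.9e-04), also under all scalings. Here GcKO sided with AmcKO, at 0.98, 0.533 and 0.887 FPKM, and WT with MUT, at 9.16, 14.6 and 8.32 FPKM. Myo10 was thus low in both groups with the floxed allele and a Cre.

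Gdf9 and Bmp15, the growth factors through which the oocyte acts on granulosa cells, did not pass. Gdf9 was at 1631.5, 2931.3 and 1746.2 FPKM in MUT and at 2487.2, 2120.6 and 3112.8 FPKM in AmcKO, and Bmp15 at 1387.4, 1559.9 and 1266.3 against 1410.3, 1138.1 and 1488.9 FPKM. The ranges overlapped for both, with differences of -0.32 and 0.07 on the log2 scale (limma adjusted p = 0.468 and 0.869). Bmp15 was called higher under the same sum, quantile normalization and cyclic loess (0.77 to 0.82 on the log2 scale), where Gdf9 was at 0.38 to 0.52 and not called. Gja4, the gap junction protein on the oocyte side, was at 165.6, 244 and 207.6 against 136.6, 76.4 and 147 FPKM (adjusted p = 0.088), without overlap, and was called higher under the same sum, quantile normalization and cyclic loess (1.17 to 1.51 on the log2 scale).

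Some stored maternal transcripts were among the falls. Of 31 genes of the subcortical maternal complex and maternal effect, 4 fell (12.9%, against 5.79% of all transcripts) and 3 rose (9.68%, against 1.68%). The median over the 31 was 0.17 on the log2 scale, against 0.07 for all transcripts. Dppa3 (chr6:122626410-122630272), a maternal protector of DNA methylation, was at 8755.1, 7935.1 and 8573.5 FPKM in MUT and at 21715.9, 29513.6 and 20022.5 FPKM in AmcKO. It fell by 1.48 on the log2 scale (SE 0.19; limma adjusted p = 6.1e-04), but by less under the same sum (-0.78), cyclic loess (-0.34, adjusted p = 0.0274) and quantile normalization (-0.27, not called at 0.0859). Trim28, a corepressor of imprinted loci and retroelements, rose from 1.67, 0.946 and 3.24 FPKM in AmcKO to 6.27, 8.24 and 7.28 FPKM in MUT, with 10.1, 11.9 and 7.36 FPKM in GcKO and 1.05, 1.78 and 1.02 FPKM in WT. Its log2 fold change was 1.55 ± 0.32 (limma adjusted p = 0.0104), with 0.0578 without MUT replicate 2 and 0.0518 without MUT replicate 3.

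Of 27 genes of mRNA storage, translation and clearance, 5 fell (18.5%, against 5.79% of all transcripts) and 1 rose (3.7%, against 1.68%), with a median of 0.12 on the log2 scale. Btg4 (chr9:51060901-51119875), the adaptor that brings maternal mRNA to the CCR4-NOT deadenylase, was at 2819.2, 2951.7 and 2568 FPKM in MUT and at 7153.6, 7545.3 and 6642.6 FPKM in AmcKO. It fell by 1.36 on the log2 scale (SE 0.16; limma adjusted p = 3.6e-04). The call held under all scalings and without each library, but the value was -0.66 under the same sum, -0.4 under quantile normalization and -0.42 under cyclic loess. Zar1l, a maternal mRNA-binding protein, fell from 1050.2, 1351.2 and 1007.2 to 594.2, 591.6 and 513.9 FPKM and was called in each of these too, at -0.39 to -0.29 on the log2 scale under the same scalings. Dazl and Eif4e fell by 0.8 and 0.91 on the log2 scale on the deposited scale and were lost in several of the alternatives.

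Oocyte-specific multigene families were looked at after their values were seen, and reads of near-identical copies make each member uncertain. All 13 Fbxw genes tested of the cluster on chromosome 9, which encode F-box proteins, were lower in MUT, with log2 fold changes from -1.44 to -0.87, and 8 to 13 of them were lower under the 4 other scalings. They were abundant, with group means from 292.4 to 8539.9 FPKM. Over all transcripts, 32.9% of those between 100 and 1000 FPKM and 70.9% of those at 1000 FPKM or more were lower. Fbxw24 was at 3302.3, 3448.2 and 3018.1 FPKM in MUT and at 8835.3, 9513.2 and 7271.3 FPKM in AmcKO. Of 4 Oog genes 3 fell, and Oog4 was at 1217.5, 1347.3 and 1303.3 against 4601.3, 5871.1 and 3935.7 FPKM, a fall by 1.88 on the log2 scale (limma adjusted p = 8.3e-04) called under all scalings, at -1.18 under the same sum and -1.01 under cyclic loess. Of 15 oocyte transcription factors 3 fell (20%, against 5.79% of all transcripts) and 1 rose (6.67%, against 1.68%). The 3 were Obox homeobox genes, of which 4 were tested, but no Obox gene was called under quantile normalization or cyclic loess, where Obox2 went from -1.2 to -0.19 and 0.02.

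Of 17 cohesin, securin and separase genes 3 fell on the deposited scale (17.6%, against 5.79% of all transcripts) and none rose. The median was 0.12 on the log2 scale. Pttg1, which encodes securin, went from 812.1, 1115.2 and 832.7 to 417.6, 442.5 and 488.7 FPKM. Esco2, an acetyltransferase of cohesin, went from 578.7, 618.1 and 558.5 to 304.2, 311.3 and 323 FPKM. Wapal, which releases cohesin, went from 526.8, 312.6 and 408.1 to 182.8, 192.5 and 184.7 FPKM. By their means over the 6 libraries all 3 lay between 100 and 1000 FPKM, where 32.9% of all transcripts were called lower. Like every transcript called lower, none overlapped between the groups, at log2 fold changes of -1.02, -0.9 and -1.12. Pttg1 was called under all scalings, at -0.42 to -0.32 on the log2 scale under the same sum, quantile normalization and cyclic loess, and Esco2 (0.0582 to 0.145) and Wapal (0.0707 to 0.163) were not called under the same sum, quantile normalization or cyclic loess. Of 34 genes of the anaphase-promoting complex and the spindle checkpoint, 5 fell (14.7%, against 5.79%) and 1 rose (2.94%, against 1.68%), with a median of 0.07. Spc25, a kinetochore subunit, was at 378.4, 336.6 and 375.8 against 746.3, 886.7 and 620 FPKM, and fell by 1.03 on the log2 scale (limma adjusted p = 0.0024). It was called under all scalings, with smaller values of -0.44 to -0.33 under the same sum, quantile normalization and cyclic loess.

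Of 29 genes of meiotic arrest and the cell cycle engine 2 rose (6.9%) and 1 fell (3.45%). Of 22 genes of DNA replication licensing 2 rose (9.09%) and 2 fell (9.09%). Over all transcripts, 1.68% rose and 5.79% fell. Fbxo43, the inhibitor EMI2 of the anaphase-promoting complex, was at 20.4, 28.2 and 24.8 FPKM in MUT against 12.2, 9.73 and 16.3 FPKM in AmcKO. Mcm6, a subunit of the replicative helicase, was at 8.44, 9.56 and 12.8 against 1.51, 3.56 and 5.8 FPKM, and 10.7, 7.49 and 9.45 FPKM in GcKO against 3.55, 5.35 and 5.17 FPKM in WT. Both rose under all scalings (limma adjusted p = 0.0251 and 0.0238), and lost the call when any of at least 4 of the 6 libraries was left out.

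Of 34 proteasome subunits 7 fell (20.6%) and none rose, the median being -0.36 on the log2 scale, and under the same sum 2 were lower and 7 higher. Psmb1, a subunit of the core particle, was at 220.7, 214.5 and 222.6 against 479.8, 600.8 and 413.6 FPKM (limma adjusted p = 0.00124), called lower under all scalings, at -0.46 under the same sum. Of 77 nuclear-encoded genes of oxidative phosphorylation 7 fell (9.09%) and 1 rose, of 76 mitochondrial ribosomal proteins 10 fell (13.2%) and none rose, and of 70 cytosolic ribosomal proteins 6 fell (8.57%) and 1 rose, against 5.79% of all transcripts. Their median log2 fold changes were -0.37, -0.08 and -0.21, and 0.3, 0.58 and 0.46 under the same sum, against 0.07 and 0.57 for all transcripts.

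Mrpl42, a mitochondrial ribosomal protein, fell from 79.3, 108.2 and 90.6 to 25.4, 38.4 and 31.1 FPKM, and Rplp1, an acidic protein of the ribosomal stalk, rose from 622.9, 575.1 and 475.7 to 875.5, 965.3 and 891.3 FPKM, both called under all scalings (Mrpl42 at -0.84 under the same sum), though Rplp1 was not called without MUT replicate 2 (0.0519). Of 18 genes of redox defence 2 fell (11.1%, against 5.79% of all transcripts) and none rose. Prdx1, a peroxidase of the cytosol, was at 914.4, 874.5 and 958.1 against 1950, 2532.5 and 1727.9 FPKM. Of 19 genes of glycolysis and pyruvate use 2 rose (10.5%, against 1.68% of all transcripts) and 1 fell (5.26%, against 5.79%). Pkm, the pyruvate kinase that oocytes leave largely to their granulosa cells, was at 19.6, 23 and 21.2 against 9.21, 6.52 and 4.47 FPKM and rose by 1.57 ± 0.3 (limma adjusted p = 0.00695), and it lies on chromosome 9. Of 20 genes of cholesterol synthesis and uptake 2 fell (10%, against 5.79% of all transcripts). These were Insig1 and Hmgcs1, by 0.75 and 0.65 on the log2 scale, neither of them called under the same sum, quantile normalization or cyclic loess.

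**Figure D3:**
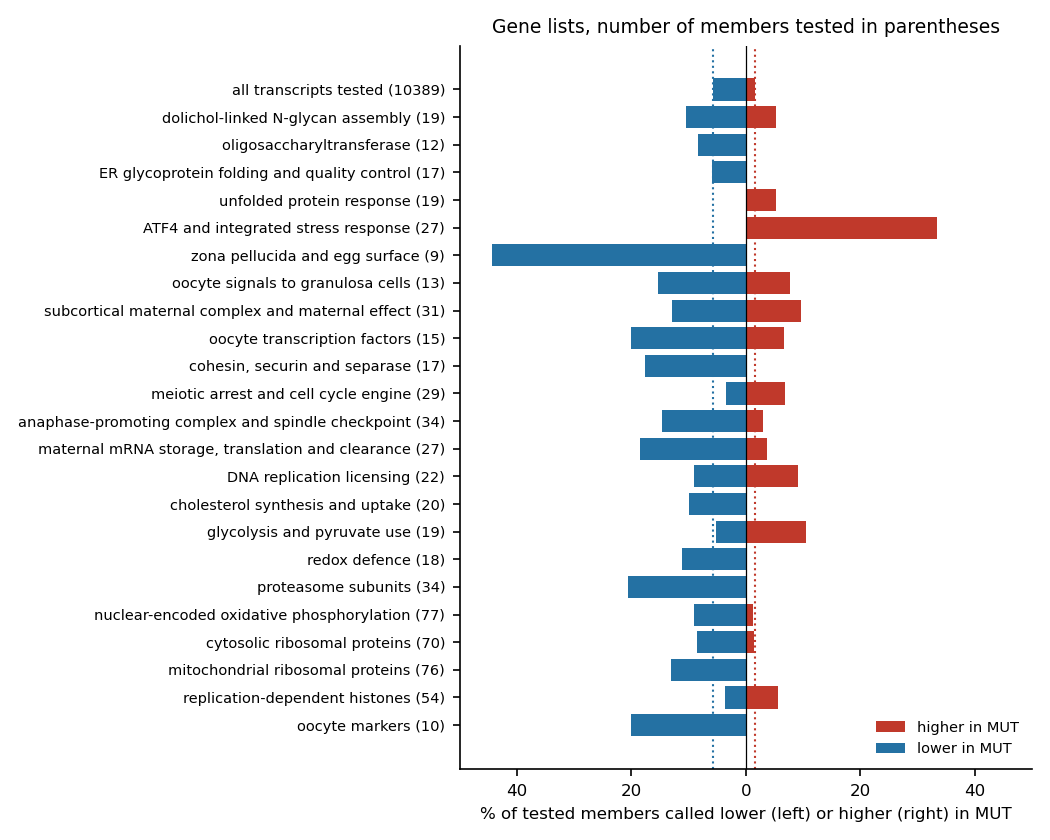
Percent of the tested members of each gene list called lower (blue, left) or higher (red, right) in MUT than AmcKO, with dotted lines at 5.79% and 1.68%, the shares of all 10389 transcripts; the number tested is in parentheses. The ATF4 list reaches furthest to the right with 33.3% and the zona pellucida list to the left with 44.4% of only 9 members. Abundant transcripts of any kind were called lower more often than 5.79%, with 32.9% between 100 and 1000 FPKM.

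Beyond these lists, the 10 largest rises and falls without overlap included transcripts that differed in every library and transcripts with a mixed pattern in the other groups. Cphx2, an oocyte homeobox gene with near-identical copies, was at 59.8, 82.4 and 121.9 FPKM in MUT and at 0.164, 0.151 and 0.106 FPKM in AmcKO. WT had 283.5, 169.1 and 71.3 FPKM, and GcKO was split, with 71.8 and 83.8 FPKM in replicates 1 and 2 and 0.0739 in replicate 3. Its call was lost without MUT replicate 2 or 3 or AmcKO replicate 4 or 5 (0.0514 to 0.0672). Haus8, a subunit of the spindle complex augmin, was at 9.23, 14.3 and 13.2 against 0, 1.35 and 4.62 FPKM, with 1.83, 4.28 and 2.85 FPKM in GcKO and 13.3, 11.3 and 12.9 FPKM in WT.

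Bhlhe41 (chr6:145858243-145865558), a repressor of the circadian clock, was above 0 in all libraries. It was at 8.55, 11.1 and 10.1 FPKM in MUT and at 55.3, 48.3 and 52 FPKM in AmcKO, and fell by 2.28 on the log2 scale (SE 0.19; limma adjusted p = 3.2e-05) under all scalings. GcKO at 15.6, 14.9 and 18.5 FPKM and WT at 21.9, 30.3 and 26.8 FPKM lay between, so that AmcKO was the highest of the 4 groups. Gm7271 was at 1.32, 1.26 and 1.5 FPKM in MUT and at 7.41, 12.4 and 13.7 FPKM in AmcKO, and in GcKO and WT every library was at or above 7.41 FPKM, which left MUT as the group apart. Pcp4, Clec2f, Gm11487 and Rpgrip1 fell by 2.01 to 3.07 on the log2 scale, and each lost its call when 1 of several libraries was left out.

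**Figure D4:**
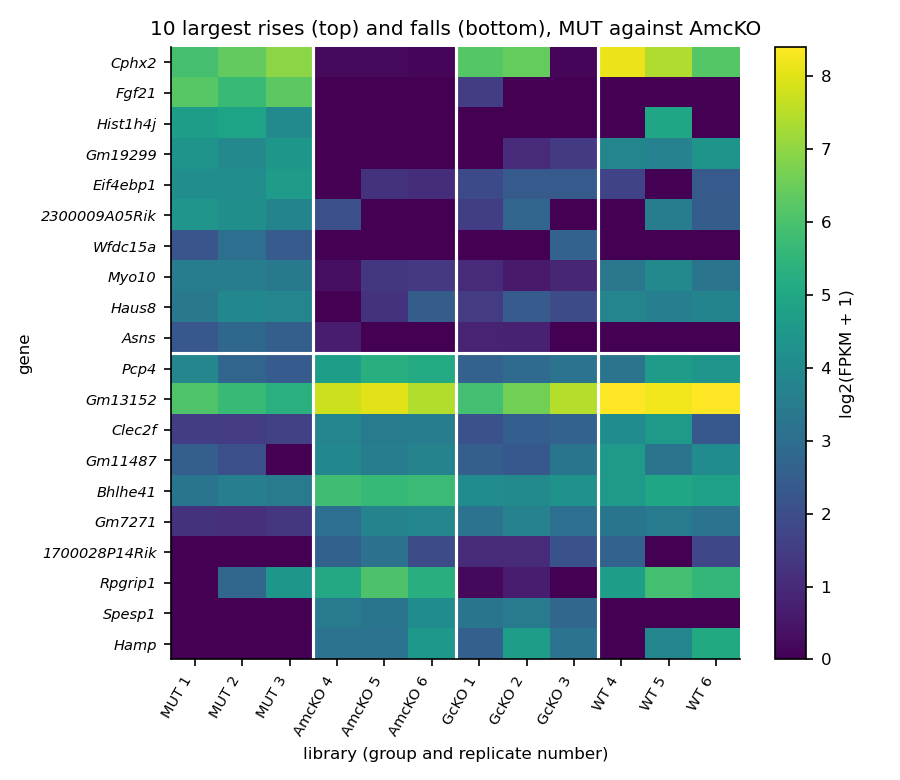
log2(FPKM + 1), as colour, in each of the 12 libraries (columns, by group and replicate) for the 10 largest rises (top) and 10 largest falls (bottom) of MUT against AmcKO without overlap. Fgf21 is bright in MUT alone, Gm19299 and Myo10 are dark in AmcKO and GcKO, and Spesp1 is dark in MUT and WT.

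The contrast of GcKO with WT shares no library with MUT against AmcKO and was set beside it. In the same fit, 2306 of the 10389 transcripts (22.2%) differed between GcKO and WT. Of the 777 transcripts called between MUT and AmcKO, 554 (71.3%) were also called there with the same sign, which is 24% of the 2306, and 13 with the opposite sign. Of those lower in MUT, 485 of 602 (80.6%) were also lower in GcKO than WT, against 12.5% of all transcripts, and of those higher, 69 of 175 (39.4%) were also higher, against 9.66%. The FPKM sums moved with this, being low in MUT and GcKO and high in AmcKO and WT, and so did the library numbers, and their part was not tested. Under quantile normalization the shared share was 45.9% and under cyclic loess 48.9%, against 13.1% and 14.2% of all transcripts called in GcKO against WT.

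Relative to the midpoint between the MUT and AmcKO means on the log2 scale, 615 of the 777 transcripts had GcKO on the MUT side and WT on the AmcKO side. Jag1, Canx, Btg4 and Dppa3 were of this kind. For 111 both GcKO and WT lay on the AmcKO side, Fgf21, Asns, Nupr1 and Eif4ebp1 among them, and for 28 both lay on the MUT side. For 23 the GcKO mean lay on the AmcKO side and the WT mean on the MUT side. This split goes by means, so single libraries with and without the floxed allele could overlap. Alg9, for instance, was at 4.2 FPKM in GcKO replicate 1 and at 3.82 FPKM in MUT replicate 1. Other contrasts that share libraries with this comparison gave 22 called transcripts (0.212%) for AmcKO against WT, 22 (0.212%) for GcKO against MUT, 641 (6.17%) for GcKO against AmcKO and 2396 (23.1%) for MUT against WT.

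Chromosome 9, which carries Dpagt1, had a larger share of called transcripts than the others. Of 594 transcripts tested there 69 (11.6%) were called, 22 higher and 47 lower, against 4.69 to 9.1% on the 19 other chromosomes. Within 20 Mb of Dpagt1, 26 of 186 (14%) were called, 14 higher (7.53%, against 1.68% of all transcripts) and 12 lower, and beyond 20 Mb 43 of 408 (10.5%). The Fbxw cluster, with near-identical copies, accounts for 13 of the 47 lower transcripts. It lies about 65 Mb from Dpagt1, so these 13 are also among the 43 called beyond 20 Mb. The shares of the whole chromosome and of the part beyond 20 Mb thus rest in part on this cluster.

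Of the 23 transcripts in which GcKO lay with AmcKO and WT with MUT, 12 (52.2%) were on chromosome 9, against 8.88% of the 777 called, and 7 lay within 20 Mb of Dpagt1. Spesp1 (chr9:62270729-62282208), an acrosomal protein gene, was at 0 in all MUT and WT libraries, at 10.2, 8.59 and 15.9 FPKM in AmcKO and at 8.66, 10.1 and 5.83 FPKM in GcKO (limma adjusted p = 3.2e-05 for MUT against AmcKO). Gm19299 (chr9:67133560-67213918) had the reverse pattern, at 19.2, 14.4 and 20.9 FPKM in MUT, 13.4, 12.1 and 19.5 FPKM in WT, 0 in AmcKO, and 0, 1.03 and 1.72 FPKM in GcKO. Trip4 (chr9:65828930-65908794), a transcriptional coactivator subunit, was at 4.93, 4.1 and 6.31 FPKM in MUT, 2.88, 2.08 and 3.31 FPKM in WT, 15, 25.7 and 19.5 FPKM in AmcKO and 24, 17.2 and 18.8 FPKM in GcKO.

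In all 3 genes the groups with the floxed allele did not overlap those without it, and the calls held under all scalings and without each library. Between MUT and AmcKO, however, Gm19299 reached 1 FPKM in MUT only and Spesp1 in AmcKO only. The filter thus favoured their direction and lack of overlap between these groups. Trip4 reached 1 FPKM in both. Spesp1, Trip4 and Gm19299 lie 17.94, 21.5 and 22.81 Mb above Dpagt1, and Alg9, Pkm and Dlat, described or counted in the lists, are of the same set of 12. For Alg9, Pkm and Dlat, GcKO against WT was not called (limma adjusted p = 0.0759, 0.0571 and 0.0943). AmcKO and GcKO share the floxed allele, a Cre and whatever chromosome 9 sequence came with the floxed allele, and these cannot be told apart here. A deletion of Dpagt1 comes with them, but it was driven by different Cre alleles, in granulosa cells in AmcKO and in oocytes in GcKO. Olfr877 and Olfr915, olfactory receptor genes on the other side of Dpagt1, were at 2.46 to 3.26 and 3.1 to 4.95 FPKM in MUT and at 0 in AmcKO, so that the filter favoured their rise. Leaving out 1 library ended the call of Olfr877 5 times and that of Olfr915 all 6 times. Olfr915 was also not called under cyclic loess (adjusted p = 0.0579). It is not of the 23, with 4.72, 0 and 0 FPKM in WT.

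**Figure D5:**
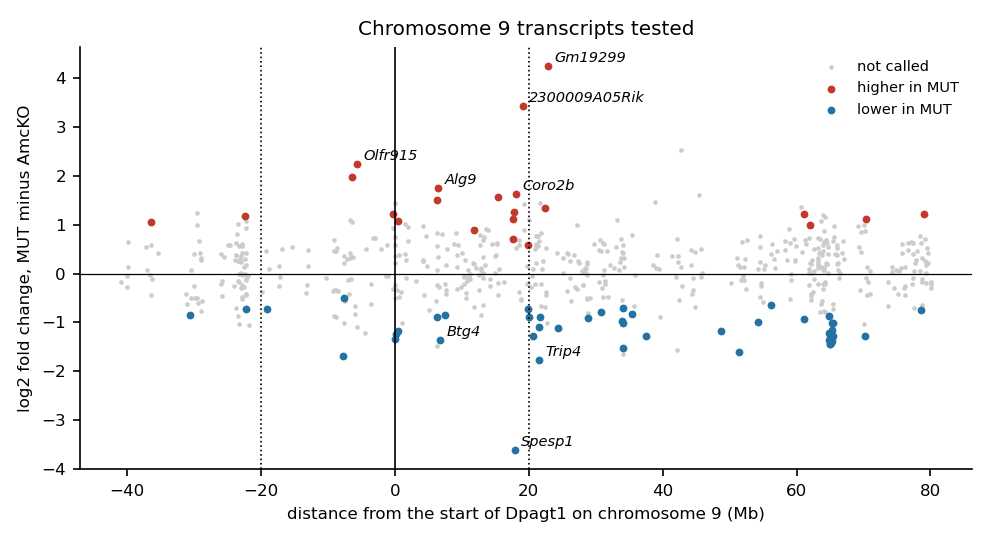
Difference of log2(FPKM + 1) between MUT and AmcKO (y axis) against the distance from the start of Dpagt1 in Mb (x axis) for the 594 transcripts tested on chromosome 9; dotted lines mark 20 Mb on both sides. Spesp1, 2300009A05Rik and Gm19299 lie between 17.94 and 22.81 Mb, and the column of blue points near 65 Mb is the Fbxw cluster.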

How the data were processed

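Paired 150 nt reads had been trimmed by the authors and mapped to mm10 (TopHat2 2.0.13), and the authors deposited FPKM values from Cufflinks 2.2.1, with Cuffnorm also named in the submitters' processing notes; library kits are named differently in the labels (NEBNext) and the design text (KAPA). Deposited columns of cuffdiff fold changes, p-values and q-values were not used. Groups came from the labels. No reads per gene are given, so limma 3.58.1 (R 4.3.3) was used on log2(FPKM + 1), with an abundance trend, all 12 libraries in 1 fit and Benjamini-Hochberg adjustment over 10389 genes, called at 0.05. Sums were compared with exact permutation tests (scipy 1.17.1). The code was tested on simulated data.

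Named genes were a fixed set of glycosylation and oocyte genes, the 10 largest rises and falls without overlap, up to 4 called members of each list by adjusted p (or the 2 highest where none was called), and up to 4 near Dpagt1; others were named after their values were seen. The comparison, members and lists were chosen with earlier results of these data known. Coordinates are from GENCODE M21 (GRCm38), and transcript lengths were found for 99.1% of genes. Alternatives were pseudocount, filter, scaling, variance model, libraries in the fit, transcript length, stricter thresholds and each library left out.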

Additional observations from a re-analysis of the deposited data

How the results depend on the processing

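The FPKM values carry no depth, the lowest values rest on few fragments, and 3 libraries a group limit the precision. No paired analysis was possible because MUT libraries are numbered 1 to 3 and AmcKO libraries 4 to 6, so the groups share no replicate number. The calls stayed between 633 and 975 under a pseudocount of 0.1, no filter, median-of-ratios scaling, a minimum mean FPKM of 5, only the 6 libraries, no WT group and a correction for transcript length. The lower transcripts were 338 under quantile normalization and 333 under cyclic loess. Scaling to the same sum gave 2500 higher, 172 lower and 2672 in all. Without the variance trend 113 were higher and 337 lower (450 in all). A fold change over 2 left 285 lower and 405 in all, and an adjusted p under 0.01 left 26 higher, 253 lower and 279 in all; both are subsets by construction.

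Leaving out 1 library gave 57 (without MUT replicate 2) to 156 higher (without AmcKO replicate 6), 270 (without MUT replicate 3) to 549 lower and 335 to 705 in all. It was 388 in all without MUT replicate 1, 336 without MUT replicate 3, 395 without AmcKO replicate 4 and 379 without AmcKO replicate 5. Between 314 and 587 of the 777 calls remained, and of 102 called genes among those named 47 were called without each library in turn, 29 of these also under all 4 other scalings. The cause was not tested.

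The transcripts called in GcKO against WT were 4980 under the same sum, 1361 under quantile normalization and 1477 under cyclic loess, and the share shared with the same sign was 76.5, 45.9 and 48.9%, against 47.9, 13.1 and 14.2% of all transcripts called there. Log2 fold changes that changed sign under the same sum were Rpl19 at 0.3, Orc6 at 0.12, Alg13 at 0.04, Ost4 at 0.32, Ostc at 0.48, Cd9 at 0.04, Tgfb2 at 0.17, Orc4 at 0.04, Hmgcs1 at 0.05, Atp5g1 at 0.0, Hspa5 at 0.67, Gdf9 at 0.38 and Cyp19a1 at 0.37. Under quantile normalization they were Ostc at 0.05, Oosp2 at 0.08, H3f3b at 0.15, Cd68 at -0.03, Hspa5 at 0.1 and Gdf9 at 0.51. Under cyclic loess they were Ost4 at 0.07, Ostc at 0.05, Oosp2 at 0.05, H3f3b at 0.1, Obox2 at 0.02, Obox5 at 0.06, Cd68 at -0.01, Hspa5 at 0.12, Gdf9 at 0.52 and Omt2a at 0.07. Bmp15 was at -0.03 with the correction for transcript length. Without 1 library, Cd68 ranged from -0.32 (AmcKO replicate 4) to 0.46, Bmp15 from -0.05 (AmcKO replicate 5) to 0.14 and Hspa5 from -0.16 to 0.1 (MUT replicate 1).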

Other observations

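Other members of the gene lists and single transcripts, not described above, are given as values. Omt2a and Omt2b, neighbours on chromosome 9 transcribed in oocytes, were at 6053.7 ± 239.5 and 4668.4 ± 104.5 FPKM (SD, n = 3) in MUT and at 12007.7 ± 2040.5 and 9473.4 ± 1572.4 FPKM in AmcKO, and neither was called under quantile normalization or cyclic loess. Dppa5a, an RNA-binding protein of the same region, was at 969.2 ± 139.8 against 2814 ± 514 FPKM and was lower under all scalings. Hist1h4j was at 24.6, 28.3 and 15.3 FPKM in MUT and at 0 in AmcKO and GcKO, with 30.1 FPKM in WT replicate 5 alone. Of 54 replication-dependent histone genes, which have near-identical copies, 3 rose (5.56%) and 2 fell (3.7%), against 1.68% and 5.79% of all transcripts. The filter favoured a rise for 13 of the 54, Hist1h4j among them, which reached 1 FPKM in MUT but not in AmcKO. Of the 41 that reached it in both groups, 1 rose (2.44%, against 1.6% of such transcripts) and 2 fell. Hamp, the hormone hepcidin, was at 0 in MUT and at 8.21, 8.23 and 21.2 FPKM in AmcKO, so that the filter favoured its fall. Its call was lost without any 1 of the 6 libraries. Tceal8 was at 8.34, 2.69 and 5.69 FPKM in MUT, 81, 40.9 and 13.4 FPKM in AmcKO, 87.6, 92.2 and 140.1 FPKM in GcKO and 18.1, 6.23 and 0 FPKM in WT (limma adjusted p = 0.0812 for MUT against AmcKO).

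Markers of other cells are given as summed FPKM, of which 5 of 7 cumulus, 4 of 6 theca and stroma, 2 of 5 red blood cell and 4 of 5 immune cell markers were listed at 0 in all 12 libraries, where a 0 can be a failed estimate. Cumulus cell markers summed to at most 0.362 FPKM in MUT and 0.203 FPKM in AmcKO, red blood cell markers to 0 and at most 1.69 FPKM, theca and stroma markers to 0 to 0.471 and 0.655 to 3.1 FPKM, and immune cell markers to 0.736 to 1.51 and 0 to 1.95 FPKM.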
